A study of Mus musculus with 12 samples.

Results

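AP-1 is a dimeric transcription factor whose subunits belong to the Fos, Jun and ATF families of basic leucine zipper proteins. The 7 subunit genes Fos, Fosb, Fosl2, Jun, Junb, Jund and Atf3 were followed in skeletal muscle of C57Bl/6 mice during high-fat feeding. Members were every probe set (a group of short probes read as 1 value) whose only annotated gene symbol is 1 of these 7, which gave 10 of the 45098 probe sets on the array and 7 of 18193 genes. None of the probe sets annotated to several genes named a member. Fosl2, Jun and Jund were each read by 2 probe sets and the other 4 genes by 1. The family was chosen by the signal of Fos, already known to be higher in these same 5-day arrays. The 5-day values of the members are therefore a description, whether set against chow or against 42 days: no member is called from them, and counts under the threshold of the fit are given beside the share of all probe sets with nothing read from them. The members are tested only at 42 days against chow, in arrays of which the chow ones also enter the 5-day values. The 5-day arrays also enter the estimate of spread behind that test, which is shared over the 3 groups.

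Biotin-labelled cRNA was measured on 12 Affymetrix arrays, with 4 arrays per group. All mice ate standard chow, with 13% of calories from fat, until 6 weeks of age. A high-fat diet (HFD), in which fat gave 46% of calories, was then fed to the first group for 5 days and to the second for 42 days. The second group was therefore older at sampling than the first. In the comparison of 42 with 5 days, length of diet and age cannot be told apart. The third group stayed on chow, and its arrays are set against both diet times. The labels name neither the muscle, the sex, the time of day nor how old the chow mice were when sampled. They also do not say that each array was a different animal, and a p-value here reflects the spread between arrays, which may be technical.

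Fos, Fosb, Jun, Junb and Atf3 are known as immediate early genes, transcribed within minutes of a stimulus with no need for new protein. Fos proteins do not form stable dimers with each other and bind DNA with a Jun partner, whereas Jun proteins can also pair among themselves. In skeletal muscle, contraction, stretch and cellular stress are known to induce several of these genes. The kinases ERK, JNK and p38 act upstream, through serum response factor with its partners and through CREB, which binds the cAMP response element.

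The upstream sequences of 5 genes are shown because each holds the core of the cAMP response element or, in Jun, an AP-1-like element. Whether these motifs relate to the signals was not tested. Each is the 120 bases before the gene start in RefSeq, build GRCm38.p6, read 5′ to 3′ on the gene's strand. Fos lies at chr12:85473770-85473889 on the plus strand. On the minus strand are Fosb at chr7:19310046-19310165, Jun at chr4:95052223-95052342, Junb at chr8:84978749-84978868 and Atf3 at chr1:191183334-191183453. Capitals mark TGACG, the core of the cAMP response element, or its reverse complement CGTCA, and in Jun the AP-1-like element TGACATCA.
Fos: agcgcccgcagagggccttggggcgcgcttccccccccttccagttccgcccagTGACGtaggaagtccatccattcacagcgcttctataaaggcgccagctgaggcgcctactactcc
Junb: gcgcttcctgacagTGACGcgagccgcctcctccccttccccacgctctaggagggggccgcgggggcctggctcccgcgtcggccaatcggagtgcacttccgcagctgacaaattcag
Atf3: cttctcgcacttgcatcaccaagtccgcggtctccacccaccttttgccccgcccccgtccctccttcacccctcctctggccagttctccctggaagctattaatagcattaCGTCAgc
Jun: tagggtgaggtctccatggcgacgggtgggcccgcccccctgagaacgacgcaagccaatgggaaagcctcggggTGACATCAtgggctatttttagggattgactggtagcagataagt
Fosb: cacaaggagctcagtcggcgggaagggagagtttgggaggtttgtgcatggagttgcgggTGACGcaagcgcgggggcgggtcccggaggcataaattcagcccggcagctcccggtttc
Both strands were searched over the 250 bases before each start. TGACG was found in 4 of the 7 genes, Fos, Fosb, Junb and Atf3, and in 17.8% of all 32851 promoters of that length. Fos held it at -129, upstream of the bases printed, and at -66 from the start, Fosb at -60, Junb at -106 and Atf3 at -7. TGACATCA was found in Jun at -45 and in 2.93% of all promoters. The full element TGACGTCA, which contains TGACG, was found in 0 of the 7 genes and in 1.55% of promoters, and the AP-1 site TGANTCA in 0 of the 7 and in 6.75%. Fosl2 and Jund, for which none of the 4 motifs was found in this window, are not printed.

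The values are log2 RMA signals, in which background correction, normalization between arrays and the summary of probes have been applied, and a difference of 1 is a doubling. They ran from 3.67 to 15.46, and the array medians lay between 7.59 and 7.70. Precision is limited by the number of arrays. Counts at an unadjusted p under 0.05 come without the share of all probe sets at that level, which was not taken. Nothing is read from them. Mean values are given ± SD (n = 4) and log2 fold changes ± SE from limma, a linear model with a shared estimate of spread, fitted to 45037 probe sets. The tissue label was checked against 10 myofibre genes, whose mean signal was 15.13 ± 0.0133 at 5 days, 15.15 ± 0.00936 at 42 days and 15.12 ± 0.0263 on chow, far above the array medians.

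Among the Fos subunits, Fos stood out after 5 days of diet and was near the chow values in the group fed for 42 days. Its product c-Fos is the prototype partner of Jun. Fos signals were 10.34, 10.69, 11.10 and 9.71 in the 5-day arrays, 9.06, 9.18, 9.20 and 9.26 in the 42-day arrays, and 9.26, 9.69, 8.72 and 8.77 in the chow arrays. All 4 of the 5-day arrays lay above every other array, the closest pair being 5-day replicate 4 and chow replicate 2. Fos was thus 2.55-fold higher at 5 days than on chow (log2 fold change 1.35 ± 0.24) and 2.43-fold lower at 42 than at 5 days (-1.28 ± 0.24). The spread within groups differed, with an SD of 0.587 at 5 days, 0.0841 at 42 days and 0.458 on chow. Leaving out single arrays moved the 5-day change between 1.14 and 1.60.

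Fosb and Fosl2 did not share this pattern in full. Fosb, which encodes FosB and a truncated splice form, had signals of 6.88, 7.15, 7.16 and 6.66 at 5 days, 7.12, 7.01, 7.18 and 6.98 at 42 days, and 7.20, 7.08, 6.72 and 6.97 on chow. The 3 groups overlapped, and the log2 fold change at 5 days was -0.032 ± 0.11, with a 95% interval of -0.27 to 0.21 and a positive sign after quantile normalization (0.034), cyclic loess (0.039) or centring on the median (0.027). Fosb was below the median of its array on all 12 arrays, so its probe set was dim. For Fosl2, which encodes Fra-2, the brighter probe set (1437247_at) read 9.45, 9.61, 9.54 and 9.24 at 5 days, 8.86, 8.84, 9.20 and 9.02 at 42 days, and 9.11, 9.28, 9.18 and 9.30 on chow. It was highest at 5 days, by 0.24 ± 0.09 against chow with 5-day replicate 4 below chow replicates 2 and 4, and every 42-day array lay below every 5-day array. The other Fosl2 probe set (1422931_at) averaged 8.29 ± 0.167 at 5 days, 8.38 ± 0.15 at 42 days and 8.50 ± 0.11 on chow, and was lower at 5 days than on chow by -0.21 ± 0.091. The Fosl2 probe sets therefore disagreed in direction at 5 days, and no direction is given for the gene.

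**Figure D1:**
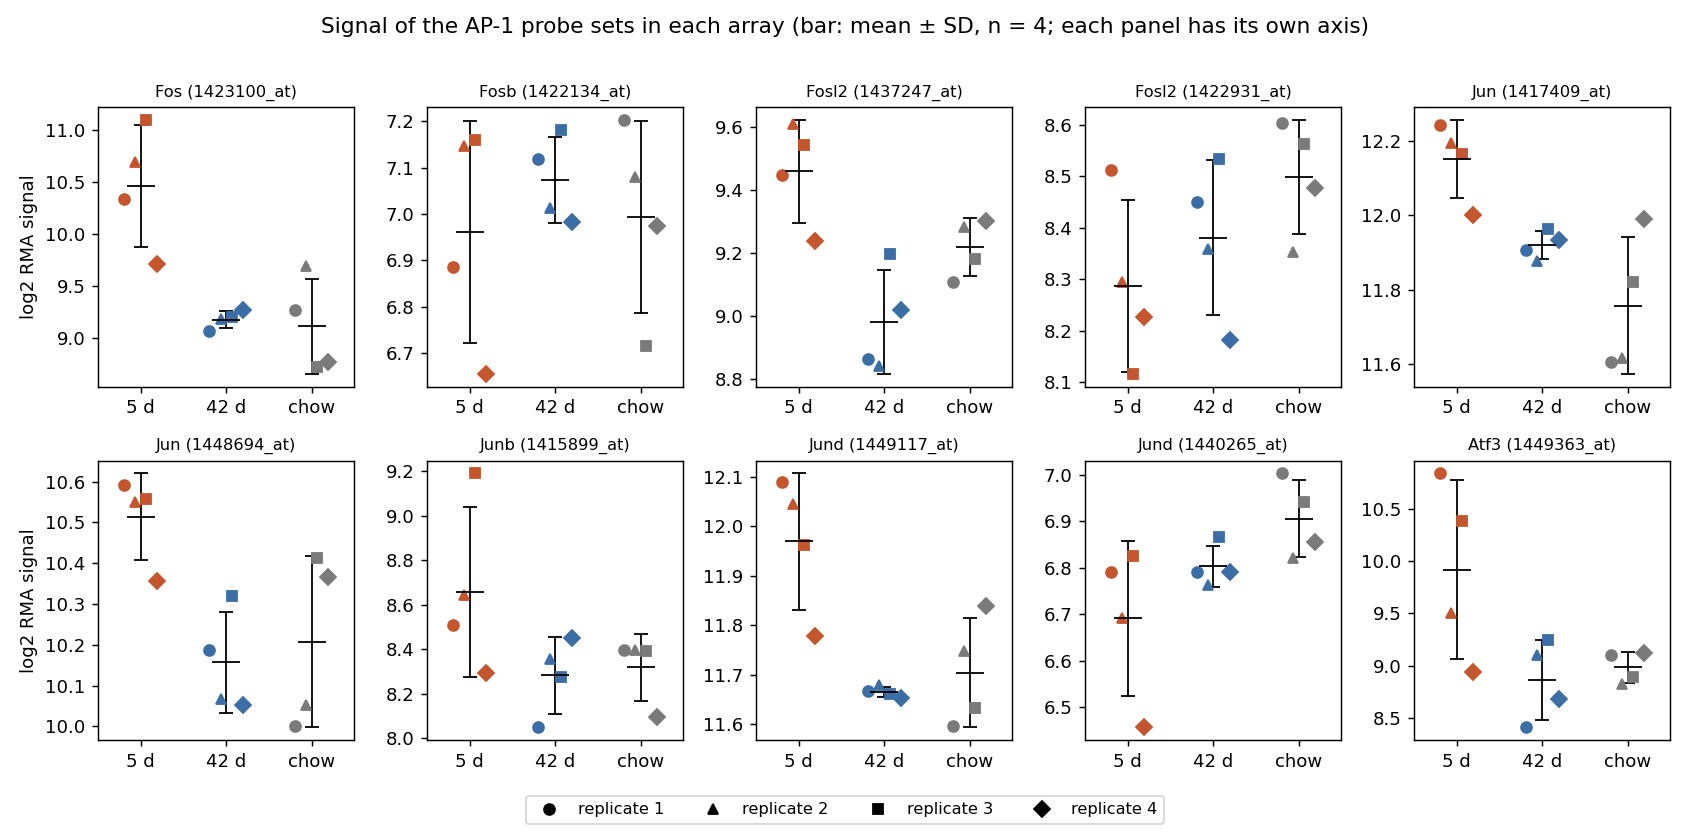
Log2 RMA signal (y axis, own scale in each panel) of the 10 AP-1 probe sets in the HFD 5-day, HFD 42-day and chow arrays (left to right); each symbol is 1 array, its shape the replicate number, and bars are mean ± SD, n = 4. For Fos the 5-day arrays lie between 9.71 and 11.10, above all 42-day and chow arrays, and replicate 4 is the lowest 5-day array in 9 of 10 panels.

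Of the Jun subunits, Jun had higher means at 5 days in both of its probe sets, by less than Fos, while the probe sets of Jund disagreed in direction. Jun, the founding member and a Jun-Jun or Fos-Jun partner, had signals of 12.24, 12.20, 12.17 and 12.00 in its brighter probe set (1417409_at) at 5 days, 11.91, 11.88, 11.96 and 11.93 at 42 days, and 11.60, 11.62, 11.82 and 11.99 on chow. The 5-day arrays lay above all others, by only a narrow margin over chow replicate 4. That was 1.31-fold higher at 5 days than on chow (0.39 ± 0.081) and 1.17-fold lower at 42 than at 5 days (-0.23 ± 0.081). After quantile normalization or cyclic loess this last difference was smaller, at -0.15 and -0.14. The second Jun probe set (1448694_at) averaged 10.51 ± 0.106 at 5 days, 10.16 ± 0.124 at 42 days and 10.21 ± 0.21 on chow. It pointed the same way, at 0.31 ± 0.095 for 5 days against chow, though chow replicates 3 and 4 reached the lowest 5-day array. In both Jun probe sets chow replicates 3 and 4 were above chow replicates 1 and 2.

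Junb, whose product often opposes that of Jun at Jun's targets, had signals of 8.51, 8.64, 9.19 and 8.29 at 5 days, 8.05, 8.36, 8.27 and 8.45 at 42 days, and 8.39, 8.39, 8.39 and 8.09 on chow. Its 5-day mean was higher than on chow by 0.34 ± 0.15, with overlapping groups, and 5-day replicate 3 alone was above 9. Without that array the 5-day difference was 0.16. Jund, the subunit known for steady expression in resting cells, read 12.09, 12.04, 11.96 and 11.78 in its brighter probe set (1449117_at) at 5 days, 11.67, 11.68, 11.66 and 11.65 at 42 days, and 11.60, 11.75, 11.63 and 11.84 on chow. Its 42-day arrays were almost level (SD 0.0107) and all lay below the 5-day arrays, while chow replicate 4 was above the lowest 5-day array. The 5-day difference from chow was 0.26 ± 0.071, or 1.20-fold. The second Jund probe set (1440265_at), dim on all 12 arrays, averaged 6.69 ± 0.166 at 5 days, 6.80 ± 0.0439 at 42 days and 6.91 ± 0.0824 on chow, and ran the other way at -0.21 ± 0.075. No direction is therefore given for Jund.

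Atf3, a stress-induced factor that pairs with Jun proteins and often acts as a repressor, had the second largest 5-day difference and the widest spread. Its signals were 10.84, 9.50, 10.39 and 8.94 in the 5-day arrays, 8.41, 9.10, 9.25 and 8.68 in the 42-day arrays, and 9.10, 8.82, 8.89 and 9.12 in the chow arrays. At 5 days 3 arrays lay above every other array and replicate 4 lay among the chow values. The mean was 1.91-fold higher at 5 days than on chow (0.93 ± 0.30) and 2.08-fold lower at 42 than at 5 days (-1.05 ± 0.30). The SD was 0.856 at 5 days, 0.384 at 42 days and 0.149 on chow. Leaving out single arrays moved the 5-day difference between 0.63 and 1.26.

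Seen together, 7 of the 10 probe sets were higher at 5 days than on chow, with a median log2 fold change of 0.29, against -0.021 over all probe sets. The 3 lower ones were Fosb and the dimmer probe sets of Fosl2 and Jund. For description, 2 of the 10 lay under an adjusted p of 0.05, where 3.21% of all probe sets did in either direction, 1.53% higher and 1.68% lower. In Fos and Jun 1417409_at the 5-day arrays lay above all chow arrays, which held for 4.88% of all probe sets, while in 0 of 10 all 5-day arrays lay below chow (6.83% of all). Because the 5-day values chose the family, nothing is read from these counts. The first count also changed with single arrays, being 0 of 10 without 5-day replicate 2 or without chow replicate 3, 1 without chow replicate 1 and 4 without 5-day replicate 4. Among all 45037 probe sets, 5 passed without 5-day replicate 2 and 5 without chow replicate 3, against 1445 with all arrays.

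**Figure D2:**
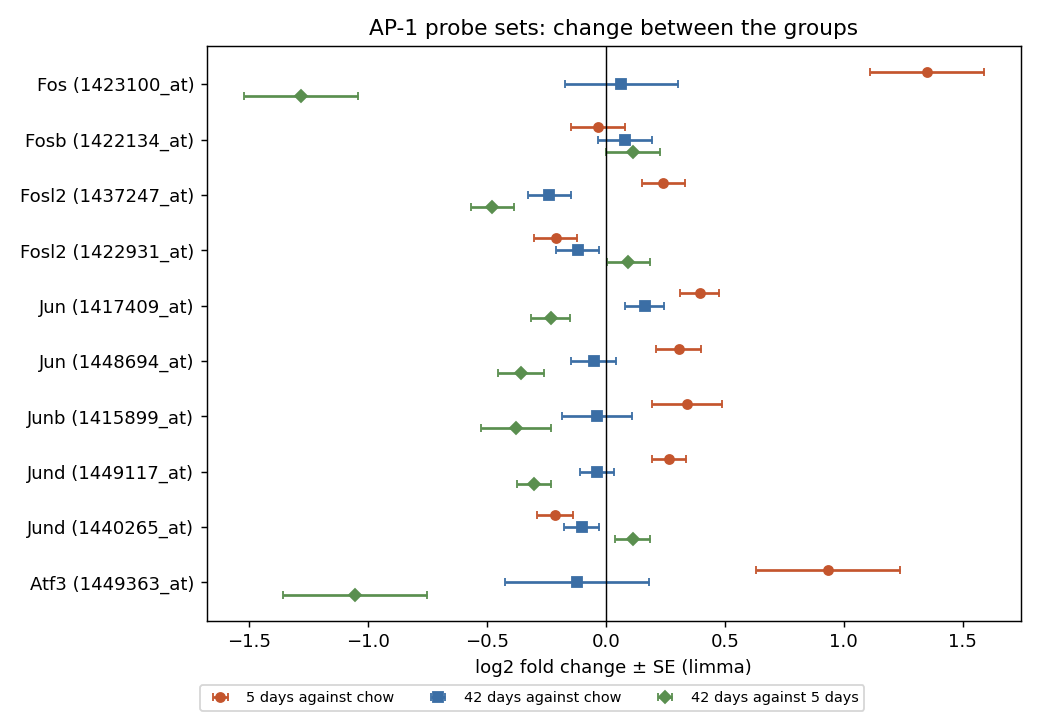
Log2 fold change ± SE (x axis, limma) of the 10 AP-1 probe sets (rows) in the 3 contrasts: HFD 5 days over chow, HFD 42 days over chow, and HFD 42 over 5 days. Fos (1.35) and Atf3 (0.93) have the largest 5-day differences, the values of 42 days against chow lie between -0.24 and 0.16, and the 3 probe sets that were lower at 5 days are those of Fosb, Fosl2 (1422931_at) and Jund (1440265_at).

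The 5-day arrays did not order the subunits in the same way. Replicate 4 was the lowest 5-day array in 9 of 10 probe sets, the exception being Fosl2 1422931_at. How often replicate 4 was the lowest over all probe sets was not counted, so this order is not read as particular to AP-1. Fos and Junb were highest in replicate 3, whereas Atf3, both Jun probe sets and the brighter Jund probe set were highest in replicate 1. Deviations of the 12 arrays from their group means correlated at r = 0.77 between Fos and Junb and at 0.80 between Fos and Fosb. For Fos and the brighter Jun probe set the same measure was -0.18, and between the Jun probe sets it was 0.84. These correlations describe 12 arrays that share their RNA and normalization between the genes, and carry no test.

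**Figure D3:**
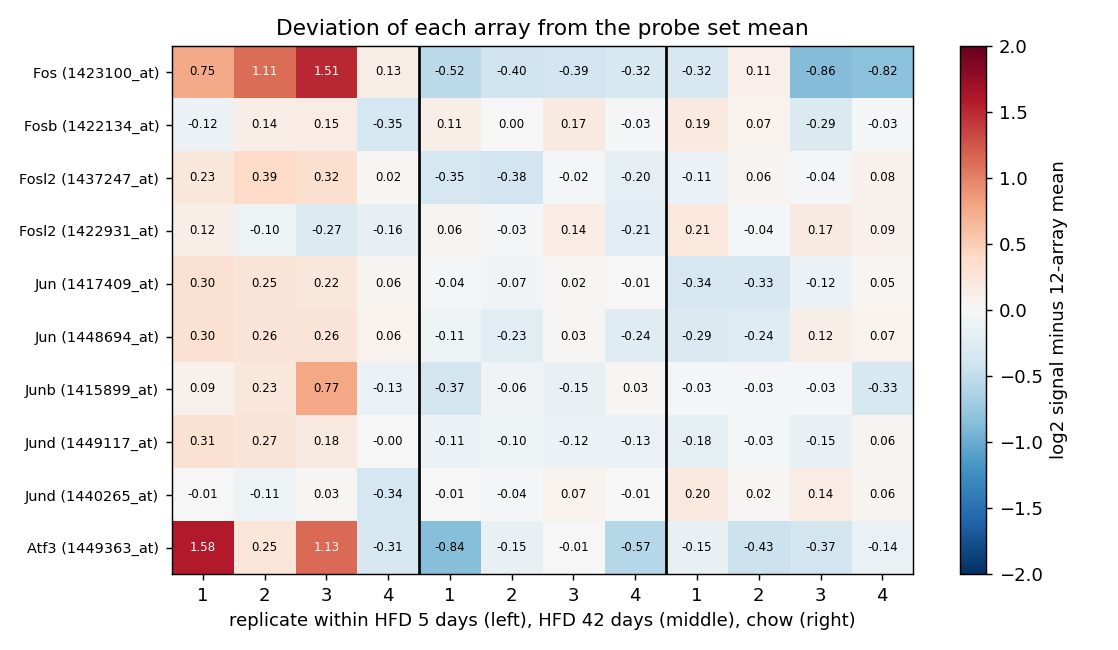
Log2 signal of each array minus the mean of all 12 arrays (colour and number) for the 10 AP-1 probe sets (rows), with the HFD 5-day arrays on the left, the HFD 42-day arrays in the middle and the chow arrays on the right. Positive values of Fos, Atf3 and Junb gather in 5-day replicates 1 to 3, and replicate 4 is the lowest of the 5-day arrays in 9 of 10 rows.

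After 42 days, the question was whether any subunit differed from chow. The test of 42 days against chow found 0 of 10 probe sets past an adjusted p of 0.05 by limma, where 8.78% of all probe sets passed in either direction (4.65% higher and 4.13% lower), and 1 of 10 had an unadjusted p under 0.05. The share of all probe sets at that unadjusted level was not taken. Adjusted p ran from 0.12 to 0.918. The groups overlapped in 10 of 10, whereas they did not overlap in 7.42% of all probe sets with 42 days higher and in 7.81% with it lower. The count past the test was 0 under every alternative run, among them a fit of only the 42-day and chow arrays. The median log2 fold change was -0.045, against -0.006 over all probe sets. Fos was at 0.065 ± 0.24 (limma, adjusted p = 0.912), with a 95% interval of -0.44 to 0.57, and its sign turned without chow replicate 3 (-0.065) or chow replicate 4 (-0.05). Atf3 was at -0.12 ± 0.30 (limma, adjusted p = 0.861), with an interval of -0.76 to 0.52, and turned to 0.029 without 42-day replicate 1. The intervals draw on the spread of all 3 groups, and the 5-day SD was the largest for Fos (0.587) and Atf3 (0.856). For Fos and Atf3 the intervals leave room for moderate changes in either direction. Those of the brighter Jun and Jund probe sets were narrower, at -0.01 to 0.34 and -0.19 to 0.11. The probe set nearest the threshold was Fosl2 1437247_at, lower by -0.24 ± 0.09 (limma, adjusted p = 0.12), and chow overlapped the 42-day arrays.

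Between the diet times, 7 of 10 probe sets were lower at 42 than at 5 days, with a median of -0.33 against 0.028 over all probe sets. For description, 4 of 10 lay under an adjusted p of 0.05, where 5.98% of all probe sets did, 2.38% higher and 3.59% lower. All 42-day arrays lay below all 5-day arrays in 5 of 10, namely Fos, Fosl2 1437247_at, both Jun probe sets and Jund 1449117_at, against 9.87% of all probe sets, and above them in 0 of 10, against 7.88%. Since the 5-day arrays chose the family and enter this comparison, nothing is read from these counts. The first was 0 without 5-day replicate 2 or 3 or without 42-day replicate 1 or 4, and 2 without 5-day replicate 1 or 42-day replicate 2.

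Signals of markers of other cell types in the tissue also differed between the groups. Of all genes 2.89% passed the test at 5 days against chow, 6.31% at 42 days against chow and 6.1% at 42 against 5 days. For an unadjusted p under 0.05 that share was not taken. Whether the marker calls held under other normalizations or without single arrays was not checked. Of 10 endothelial markers, 9 were higher at 5 days than on chow and 2 rose, Vwf (0.33 ± 0.076, adjusted p = 0.0377 by limma) and Cldn5 (0.37 ± 0.087, adjusted p = 0.0401). The summed linear signal of this list was 7240 to 8920 at 5 days, 7000 to 7620 at 42 days and 6680 to 7390 on chow. All 7 fibroblast markers were higher at 5 days, 0 of them past limma's test and 6 at an unadjusted p under 0.05, with sums of 31300 to 45300 at 5 days, 39200 to 42800 at 42 days and 26500 to 37600 on chow. Adipocyte markers went the other way, with 6 of 6 lower at 5 days and 2 of them past the test, and sums of 15000 to 20000 at 5 days, 15000 to 21900 at 42 days and 18800 to 33100 on chow. Macrophage markers had 6 of 9 higher and 0 past limma's test, with 4 at an unadjusted p under 0.05. Their sums overlapped, at 6590 to 7250 at 5 days, 6230 to 7570 at 42 days and 6100 to 6960 on chow. Of the endothelial, fibroblast and adipocyte markers measured, 0 lay below the array median on all 12 arrays, and 1 macrophage marker did. At 42 days against chow all 7 fibroblast markers were again higher and 3 of them rose, Col1a1 (0.72 ± 0.21, adjusted p = 0.0431 by limma), Col1a2 (0.61 ± 0.14, adjusted p = 0.0147) and Lum (0.70 ± 0.16, adjusted p = 0.0124). Among 10 endothelial markers 7 were higher in that contrast, 3 lower, and Pecam1 alone rose (0.43 ± 0.11, adjusted p = 0.0278 by limma). Of 9 macrophage markers 5 were higher, 4 lower, and Lyz2 alone rose (0.35 ± 0.087, adjusted p = 0.0201). Of 6 smooth muscle markers 5 were higher, 1 lower, and Myh11 alone rose (0.32 ± 0.089, adjusted p = 0.0335). The medians of these lists were 0.083, 0.011 and 0.10. Of 6 adipocyte markers 5 were lower, 0 passed limma's test and 3 had an unadjusted p under 0.05. At 42 against 5 days 8 of 10 endothelial markers were lower and Vwf fell (-0.33 ± 0.076, adjusted p = 0.029 by limma). As a sign of RNA quality, the 3-prime minus 5-prime log2 difference of the Gapdh control was 0.12 ± 0.0142 at 5 days, 0.06 ± 0.0129 at 42 days and 0.14 ± 0.0225 on chow. In the same order that of b-actin was 0.13 ± 0.0771, 0.05 ± 0.0313 and 0.14 ± 0.0404. For 18S it was 1.29 ± 0.184, 1.24 ± 0.2 and 1.36 ± 0.0663, and the groups overlapped. The part of these marker and control differences in the values of AP-1 and its network was not tested. In whole muscle fewer cells of a type and less RNA per cell cannot be told apart.

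Other genes of the AP-1 network were taken from 3 lists with 64 genes, of which 56 were measured by a probe set of their own, each represented by its brightest probe set. At 5 days against chow 2.89% of all 18193 genes passed, 1.24% higher and 1.65% lower. Near that share, 2 of 56 network genes (3.57%) rose and 0 fell. Both were targets: the matricellular proteins Ccn1 (0.48 ± 0.11, adjusted p = 0.0351 by limma) and Ccn2 (0.50 ± 0.12, adjusted p = 0.0394), each above chow in 4 of 4 arrays. Ccn1 signals were 10.36, 10.22, 10.13 and 9.95 at 5 days, 10.10, 9.60, 9.92 and 10.05 at 42 days, and 9.75, 9.51, 9.65 and 9.82 on chow. The other 19 of 21 measured targets did not pass, and the list median was -0.019, against -0.01 over all genes. Of the 13 other bZIP partners 0 passed limma's test and 4 had an unadjusted p under 0.05, the largest differences being those of the small Maf protein Maff (0.33 ± 0.089, adjusted p = 0.0542 by limma) and the CRE-binding factor Atf7 (-0.25 ± 0.073, adjusted p = 0.0637). Of 22 kinases and factors upstream 0 passed limma's test, 5 had an unadjusted p under 0.05 and 18 were higher. The largest differences were those of the SRF coactivator Mrtfa (0.31 ± 0.12, adjusted p = 0.142 by limma) and of Mapk8, which encodes the JNK1 kinase (0.15 ± 0.05, adjusted p = 0.0854). In no contrast was the share of all genes at an unadjusted p under 0.05 taken, so nothing is read from those counts. Quantile normalization, cyclic loess and the fit of 8 arrays each left 0 of 56. So did leaving out 5-day replicate 2, 42-day replicate 3 or chow replicate 3 or 4. Without 5-day replicate 1 only Atf7 passed, and neither Ccn1 nor Ccn2. Only Ccn1 passed without chow replicate 1, and only Ccn2 without chow replicate 2. Without 5-day replicate 4 Maff and Ccn1 passed.

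At 42 days against chow 6.31% of all genes passed, 2.41% higher and 3.9% lower. Of the 56 network genes 2 rose and 1 fell, or 5.36%, near that share. Ccn2 (0.45 ± 0.12, adjusted p = 0.0289 by limma) and the hyaluronan receptor Cd44 (0.26 ± 0.073, adjusted p = 0.0371) were the targets that rose. In the same contrast 3 of 7 fibroblast markers rose (Col1a1 by 0.72, Col1a2 by 0.61 and Lum by 0.70). So did 1 of 10 endothelial (Pecam1), 1 of 9 macrophage (Lyz2) and 1 of 6 smooth muscle markers (Myh11). The 3-prime minus 5-prime difference was 0.06 at 42 days against 0.14 on chow for Gapdh, and 0.05 against 0.14 for b-actin. That of 18S overlapped, at 0.95 to 1.41 against 1.28 to 1.43. The part of these differences in the change of Ccn2 and Cd44 was not tested. Creb1, which encodes CREB, fell by 0.25 on the log2 scale (SE 0.069, adjusted p = 0.0372). Partners had 0 of 13 past limma's test and 2 at an unadjusted p under 0.05, with Batf at 0.17 ± 0.067 (adjusted p = 0.132) and Atf4 at -0.13 ± 0.062 (adjusted p = 0.209). The upstream genes Elk3 (0.22 ± 0.10, adjusted p = 0.206) and Mrtfa (0.21 ± 0.12, adjusted p = 0.326) did not pass. The count was 0 without 42-day replicate 4 or chow replicate 3. Without 42-day replicate 1 only Hmox1 passed, without 42-day replicate 3 or chow replicate 1 only Creb1, and without chow replicate 4 only Cd44. The 2 that passed without 42-day replicate 2 were Ccn1 and Ccn2, and those without chow replicate 2 were Ccn2 and Hmox1.

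At 42 against 5 days 6.1% of all genes passed, 1.76% higher and 4.34% lower. Of the 56 network genes 3 fell (5.36%) and 0 rose, near that share. Creb1 fell (-0.36 ± 0.069, adjusted p = 0.0204 by limma), with signals of 9.53, 9.52, 9.68 and 9.56 at 42 days against 9.87, 10.07, 9.92 and 9.89 at 5 days. Elk4, which encodes a partner of serum response factor, also fell (-0.29 ± 0.055, adjusted p = 0.0206), as did Maff (-0.37 ± 0.089, adjusted p = 0.0332). Mafg, another small Maf protein (-0.24 ± 0.074, adjusted p = 0.0662), and Fosl1, which encodes Fra-1 (0.18 ± 0.059, adjusted p = 0.0702), did not pass. Of 21 targets 0 passed limma's test, with heme oxygenase Hmox1 at 0.29 ± 0.097 (adjusted p = 0.0827) and metallothionein Mt1 at -0.29 ± 0.12 (adjusted p = 0.131). An unadjusted p under 0.05 by limma was found for 5 of 21 targets, 7 of 13 partners and 11 of 22 upstream genes. Of these 22 upstream genes, 16 were lower at 42 than at 5 days. The count was 0 without 5-day replicate 2 or 3 or 42-day replicate 1 or 4, and 1 (Creb1) without 42-day replicate 2. With arrays centred on their median it was 11, and 9.69% of all calls were then higher, against 39.9%.

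**Figure D4:**
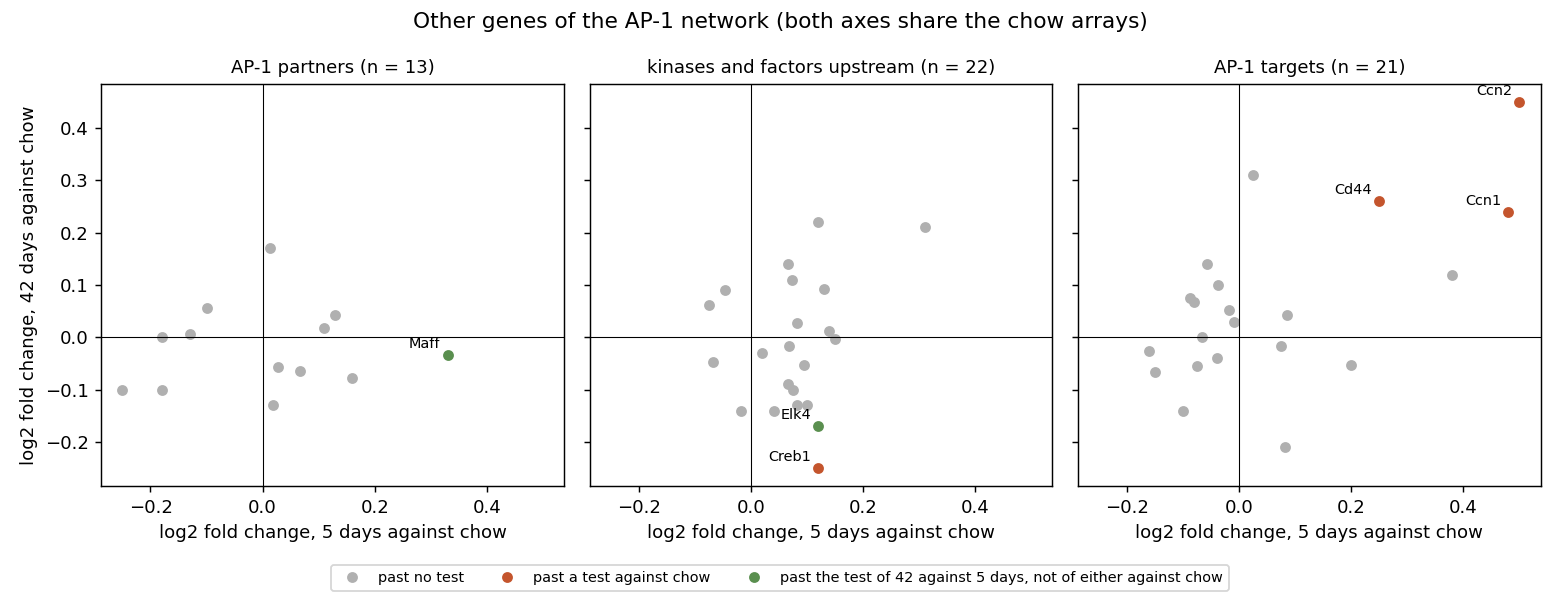
Log2 fold change of 42 days against chow (y axis) over that of 5 days against chow (x axis) for 13 AP-1 partners, 22 kinases and factors upstream and 21 AP-1 targets; each point is 1 gene and the axes share the chow arrays. Ccn1, Ccn2, Cd44 and Creb1 passed a test against chow, and Maff and Elk4 passed the test of 42 against 5 days.

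The genes whose signal followed that of Fos most closely over the 12 arrays were Dhx9, an RNA helicase (r = 0.93), Rap1b, a small GTPase (0.924), the immediate early genes Ier2 (0.92) and Ier5 (0.90), and Aqp3, a water and glycerol channel (0.905), out of 17896 genes compared. Ier2 averaged 8.91 ± 0.232 at 5 days, 8.57 ± 0.141 at 42 days and 8.50 ± 0.0497 on chow. Ier5 averaged 9.77 ± 0.232 at 5 days, 9.40 ± 0.0449 at 42 days and 9.27 ± 0.0865 on chow. Dhx9 averaged 8.19 ± 0.0971 at 5 days, 7.91 ± 0.0835 at 42 days and 7.81 ± 0.0665 on chow. For Rap1b the means were 8.94 ± 0.0744, 8.80 ± 0.0283 and 8.79 ± 0.0295 in the same order. Replicate 4 was the lowest 5-day array in Dhx9 (8.09), Rap1b (8.84), Ier2 (8.58), Ier5 (9.43) and Aqp3 (4.03). These genes were picked for their likeness to Fos over the same arrays, so nothing is read from patterns they share with it. Aqp3 lay near the low end of the scale, at 4.17 ± 0.158 at 5 days, 3.97 ± 0.0609 at 42 days and 3.97 ± 0.0653 on chow. The correlations describe arrays that share their RNA, and they include the difference between the groups.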

How the data were processed

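The deposited values are log2 RMA signals per probe set; RMA is named in the submitters' processing notes, its software and version are not given in the sources used here, and the log base was taken from the values. Of 45098 probe sets, 61 controls were left out; 34945 had 1 gene symbol, 932 several and 9160 none, and 34741 matched the RefSeq table by Entrez identifier. limma 3.58.1 (R 4.3.3) estimated the 3 group means from all 12 arrays (9 residual and 6.26 prior degrees of freedom), two-sided, with Benjamini-Hochberg adjustment over all 45037 probe sets in each contrast and a threshold of 0.05. No filter was set on dim probe sets. List genes used their probe set with the highest mean. The procedure was tested on simulated data. Motifs were searched with Python 3.11.15.

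The members, lists and tests were chosen with earlier results of these data known. Named were all member probe sets; per list and contrast up to 4 genes past the test or, where under 2 passed, the 2 largest differences; and the 5 genes most like Fos, leaving out probe sets marked for cross-hybridisation. The satellite cell, smooth muscle and neutrophil lists had 0, 1 and 0 genes past the test at 5 days against chow. Alternatives were other normalizations, filters, priors, weights, samples, a replicate block, a threshold of 0.1 and leaving out each array. Of 12 pairs of arrays with the same replicate number 4 correlated over 0.1, so the numbers were not taken to pair the arrays.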

Additional observations from a re-analysis of the deposited data

Results flagged for a closer look

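Of 30 groups of 4 values checked over the 10 probe sets, 2 held an array far from the other 3, where chance flags about 1 in 20. In Jun (1448694_at) 5-day replicate 4, at 10.36, lay below the other 5-day arrays. In Junb chow replicate 4, at 8.09, lay below the other chow arrays, which were level at 8.39.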

How the results depend on the processing

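For the 10 AP-1 probe sets, 0 of 198 alternative values of 5 days against chow moved by 1 within-group SD or more. At 42 against 5 days it was also 0 of 198. These counts say little about stability, because most of the values could not move that far. With groups of this size, leaving out 1 array cannot shift a mean by 1 within-group SD. The filter on dim probe sets, the trended prior, the fit of 8 arrays and the replicate block left the fold changes they covered as they were. Jun 1417409_at at 42 against 5 days (-0.23) was -0.15 after quantile normalization and -0.14 after cyclic loess. At 5 days against chow quantile normalization gave smaller differences for Jun (0.33 and 0.23), Fos (1.27) and Atf3 (0.88). The same held for Jund (0.19 and -0.15) and Fosl2 (0.19 and -0.19), brighter probe set first, while Junb was at 0.35. With arrays centred on their median the brighter Jund and Fosl2 probe sets were instead at 0.32 and 0.30. Signs turned in 5 of the values at 5 days against chow, all in Fosb, and in 0 of those at 42 against 5 days. At 42 days against chow 8 of 198 turned sign, all on leaving out 1 array, with ranges of -0.065 to 0.26 for Fos, -0.012 to 0.15 for Fosb, -0.12 to 0.017 for Jun 1448694_at, -0.11 to 0.04 for Junb, -0.075 to 0.0058 for Jund 1449117_at and -0.25 to 0.029 for Atf3.

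Counts of AP-1 probe sets that involve the 5-day arrays are a description. The count under the threshold at 5 days against chow, 2 of 10, was 1 after quantile normalization or cyclic loess, 4 with arrays centred on their median, 0 in the fit of 8 arrays, 5 at an adjusted p under 0.1, and 0 to 4 leaving out single arrays. At 42 against 5 days, 4 of 10, it was 2 after quantile normalization or cyclic loess and 0 to 5 leaving out single arrays. At 42 days against chow it was 0 throughout. For the 56 network genes at 5 days, 2 past the test, it was 0 after quantile normalization, cyclic loess or in the fit of 8 arrays, 5 with centred arrays or without the dimmest 40%, 7 at 0.1, and 0 to 2 leaving out single arrays. At 42 days against chow, 3 past the test, it was 5 without the dimmest 40%, with the trended prior or at 0.1, and 0 to 3 leaving out single arrays. At 42 against 5 days, 3 past the test, it was 11 with centred arrays or at 0.1, 8 without the dimmest 40%, 5 with 1 probe set per gene, 6 with the trended prior, and 0 to 4 leaving out single arrays. The causes were not tested.

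With the replicate number as a block the AP-1 counts were 2, 0 and 4 and those of the network 2, 3 and 4, so it moved none over 1.5 times; the array nearest in deviation had the same number for 4 of 12. Over all probe sets, 1445 passed at 5 days against chow, 482 after quantile normalization (60.6% higher), 502 after cyclic loess (62.5% higher), 2771 with centred arrays (85.3% higher, against 47.5%), 675 with array weights and 7 in the fit of 8 arrays. At 42 against 5 days 2692 passed, 1210 after quantile normalization, 1128 after cyclic loess and 5221 with centred arrays. Without 1 array the 5-day count ran from 5 to 1591 and that of 42 against 5 days from 32 to 3173.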
